A study of Homo sapiens with 4 samples.

Results

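Mitochondria that are damaged or no longer needed are removed by mitophagy, the autophagy of whole mitochondria. The 4 genes described here, BNIP3, BNIP3L, FUNDC1 and PINK1, encode proteins that mark mitochondria for this removal. They were chosen by gene name out of 31907 gene names, with their counts in these libraries already known, and their levels are therefore a description with no test of their own. All 4 were found in every library, and all 4 were among the 16361 genes that passed the filter on low counts. The data are RNA-seq counts of HGC-27, a human gastric cancer (GC) cell line. Of the 4 libraries, 2 came from cells given PBS and 2 from cells given 200 ng/ml recombinant IL-17B (rIL-17B), each for 48 h. Both groups are this 1 line with no other alteration named, and nothing in the labels says whether replicates came from separate cultures, so that any p below measures a spread between libraries that may be technical.

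Mitophagy follows a pair of routes that meet at the growing autophagosome. In the receptor route, proteins of the outer mitochondrial membrane (BNIP3, its relative BNIP3L, also called NIX, and FUNDC1) bind the lipid-anchored ATG8 proteins of the autophagosome directly. In the ubiquitin route, the kinase PINK1 builds up on depolarised mitochondria and phosphorylates ubiquitin, and cargo receptors then link the ubiquitin coat to the ATG8 proteins. BNIP3 and BNIP3L are known for transcription driven by hypoxia-inducible factors (HIF), whereas FUNDC1 and PINK1 are known mostly for control at the protein level.

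RefSeq promoter entries were matched for 2 of the 4 genes, BNIP3 and FUNDC1. Only these 2 are shown because no entry was matched for BNIP3L or PINK1. A link between the windows and the levels described further on was not tested. Each sequence is the 250 bases before the RefSeq start on GRCh38.p14, read along the minus strand, on which both genes lie: chr10:131981924-131982173 for BNIP3 and chrX:44542860-44543109 for FUNDC1. Capitals mark the letters ACGTG and GCGTG on either strand, the core that HIF is known to bind.
BNIP3: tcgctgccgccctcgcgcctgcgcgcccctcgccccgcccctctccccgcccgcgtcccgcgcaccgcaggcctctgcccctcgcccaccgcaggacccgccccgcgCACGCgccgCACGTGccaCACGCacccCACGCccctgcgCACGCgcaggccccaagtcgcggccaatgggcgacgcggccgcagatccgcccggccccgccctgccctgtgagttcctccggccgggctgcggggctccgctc
FUNDC1: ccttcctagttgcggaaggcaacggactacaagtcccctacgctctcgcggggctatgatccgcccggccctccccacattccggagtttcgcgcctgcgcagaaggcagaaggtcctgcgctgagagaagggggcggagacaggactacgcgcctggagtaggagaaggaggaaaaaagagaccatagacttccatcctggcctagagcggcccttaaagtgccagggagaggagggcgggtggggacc
The BNIP3 window held GCGTG 4 times, each on the other strand, and CACGTG 1 time, in which ACGTG is read on both strands. The FUNDC1 window held none of these. Of 35116 promoter windows of the same length, 18.5% held ACGTG, 32.2% held GCGTG and 6.34% held CACGTG. The window was 81.6% G and C in BNIP3 and 62.4% in FUNDC1. A match of letters describes the window and is no evidence that a factor was bound.

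One library, rIL-17B replicate 1, stood apart from the rest. The libraries held 15904594 and 12888029 counts under PBS against 14615341 and 17555879 counts under rIL-17B, so that 3 counts, the smallest number taken as shown, stood for 0.171 to 0.233 CPM (the count divided by the library total, times 1000000). Over the tested genes, rIL-17B replicate 1 differed from each other library by a chi-square of 139 to 180 per degree of freedom, whereas the other libraries differed among themselves by 3.66 to 8.71. The summed level of 12 mesenchymal markers (FN1, COL1A1, VIM and others) was 51013 and 50343 CPM under PBS, 1013 CPM in rIL-17B replicate 1 and 42656 CPM in replicate 2. Of these markers, 11 were at least 2-fold lower in replicate 1 than in the PBS mean. The summed level of 12 epithelial markers was 1017 and 1014 CPM under PBS against 2255 and 1272 CPM under rIL-17B, and the defining marker CDH1 had 7 to 11 counts in every library. Of these markers 8 were tested, and 2 were at least 2-fold higher in replicate 1. KRT19 had 47 and 43 counts under PBS against 1 and 58, and CLDN4 had 6.73 and 8.38 CPM against 6.64 and 5.92 CPM, so that neither shared the direction of the sum. The labels' protocol speaks of monocytes, but 12 monocyte markers summed to between 9.31 and 17.8 CPM. LYZ had 0 to 4 counts, and 7 of the 12 were at 0 in rIL-17B replicate 1. PTPRC, S100A9 and CTSS had 22 to 52 counts in each library other than that one. CSF1R had 62 and 72 counts under PBS against 119 and 108 under rIL-17B, and held 8.14 of the 9.31 CPM in replicate 1. Of the 7 markers tested, 1 was higher and 5 were lower in each rIL-17B library than in either PBS library. The part of these marker differences in the results below was not tested.

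The mRNAs of BNIP3 and BNIP3L were lower in each rIL-17B library than in either PBS library, and those of FUNDC1 and PINK1 were higher. The differences were far larger in rIL-17B replicate 1, in which BNIP3 stood at 45.4% and BNIP3L at 37.2% of the PBS mean, than in replicate 2, in which they stood at 95.8% and 89.0%. FUNDC1 stood at 143% of the PBS mean in replicate 1 and at 107% in replicate 2, and PINK1 at 148% and 114%. In bulk RNA such as this, fewer cells of a kind and less RNA per cell cannot be told apart. Groups that do not overlap were common in these libraries. Of the 16361 genes tested, 31.5% were higher in each rIL-17B library than in either PBS library and 27.5% were lower, so that the direction of the 4 genes is read as no more than their order. With rIL-17B replicate 1 left out, replicate 2 still lay outside both PBS libraries on the same side for all 4 genes, where 37.0% of all genes tested lay above and 36.1% lay below.

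BNIP3 (ENSG00000176171.11, GRCh38, minus strand of chromosome 10, 131966455 to 131982013) had 1541 and 1263 counts under PBS against 646 and 1639 counts in rIL-17B replicates 1 and 2. In CPM these were 96.9 and 98.0 under PBS against 44.2 and 93.4 with rIL-17B. The PBS libraries lay 0.016 apart on the log2 scale and the treated libraries 1.08. The exact 95% interval of replicate 1, 40.9 to 47.7 CPM, was far below both PBS libraries, whose intervals spanned 92.1 to 104 CPM. That of replicate 2, 88.9 to 98.0 CPM, overlapped both. Such intervals cover counting error only, since PCR copies of 1 molecule were counted separately. The group means were 97.4 ± 0.783 and 68.8 ± 34.8 CPM (SD, n = 2 libraries each), and the log2 fold change from edgeR was -0.55 with a standard error of 0.45.

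BNIP3 has many processed copies in the genome, and how reads shared with them were treated is not given in the sources used here. Names of 13 such copies (BNIP3P1, BNIP3P11 and others) had a count in at least 1 library. Together they held 15 to 24 counts per library, which was 0.915% to 2.63% of the BNIP3 count. Adding them moved BNIP3 from 44.2 to 45.4 CPM in rIL-17B replicate 1 and from 93.4 to 94.2 CPM in replicate 2. BNIP3 also overlaps 2 antisense genes, and without strand their reads cannot be told apart from its own.

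BNIP3L (ENSG00000104765.15, plus strand of chromosome 8, 26382898 to 26505636) encodes NIX, best known for clearing mitochondria from maturing red blood cells. It had 2145 and 1686 counts under PBS against 723 and 2076 counts under rIL-17B, which were 135 and 131 CPM against 49.5 and 118 CPM. Replicate 1 was again far below the other libraries. The interval of replicate 2, 113 to 123 CPM, lay just under those of the PBS libraries, which spanned 125 to 141 CPM. These intervals understate the spread, since over the tested genes the PBS libraries differed from each other by more than counting error. A difference of replicate 2 beyond that spread was not tested. The means were 133 ± 2.86 and 83.9 ± 48.6 CPM (SD, n = 2 libraries each), and the log2 fold change from edgeR was -0.71 with a standard error of 0.52. The gene overlaps 5 others in GENCODE 29, and PNMA2 is among them.

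FUNDC1 (ENSG00000069509.5, minus strand of chromosome X, 44523639 to 44543001) encodes a receptor that acts in mitophagy under low oxygen. It had 247 and 209 counts under PBS against 332 and 298 counts under rIL-17B, which were 15.5 and 16.2 CPM against 22.7 and 16.97 CPM. Replicate 1 was the highest library, with an interval of 20.3 to 25.3 CPM above the 13.7 to 18.6 CPM that the PBS intervals spanned. The interval of replicate 2, 15.1 to 19.0 CPM, overlapped both PBS libraries. The means were 15.9 ± 0.485 and 19.8 ± 4.06 CPM (SD, n = 2 libraries each), and the log2 fold change from edgeR was 0.24 with a standard error of 0.18. Of the 4 genes, FUNDC1 alone overlaps no other gene in GENCODE 29.

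PINK1 (ENSG00000158828.7, plus strand of chromosome 1, 20633455 to 20651511) had 341 and 276 counts under PBS against 465 and 429 counts under rIL-17B. The PBS libraries were alike at 21.4 CPM each, and the treated libraries had 31.8 and 24.4 CPM. The interval of replicate 1, 28.99 to 34.8 CPM, lay above those of the PBS libraries, which spanned 19.0 to 24.1 CPM. That of replicate 2, 22.2 to 26.9 CPM, overlapped them. The means were 21.4 ± 0.0178 and 28.1 ± 5.22 CPM (SD, n = 2 libraries each), and the log2 fold change from edgeR was 0.31 with a standard error of 0.15. PINK1-AS, an RNA annotated on the opposite strand of the same locus, had 38 and 31 counts under PBS against 26 and 46 counts under rIL-17B, between 5.59% and 11.2% of the PINK1 count. Reads of this pair cannot be told apart where the genes overlap, since strand use is not given in the sources used here.

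The log2 fold changes rested on rIL-17B replicate 1. Without that library they were -0.07 for BNIP3, -0.17 for BNIP3L, 0.09 for FUNDC1 and 0.18 for PINK1. Without rIL-17B replicate 2 they were -1.28, -1.56, 0.38 and 0.43 in the same order. In the fit of all 4 libraries, the quasi-likelihood F test of edgeR, adjusted by Benjamini-Hochberg, called 0 of the 16361 genes (0%) at an adjusted p under 0.05, and the 4 genes were therefore not among any calls. Before adjustment, 226 genes had p under 0.05 (1.38%). DESeq2, run on all 31907 names, also called 0 genes, with 547 (1.71%) at an unadjusted p under 0.05. Leaving out rIL-17B replicate 1 gave 495 calls (105 higher and 390 lower), and leaving out replicate 2 gave 9376 (57.3% of all genes, the 4 genes among them). Each of these fits has 1 treated library, which is assumed to vary like the PBS pair.

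Among all tested genes the 4 lay well inside the spread of replicate 1. Their log2 ratios to the PBS mean, with 0.5 CPM added to each value, were at the 17.1st percentile for BNIP3, the 14.1st for BNIP3L, the 78.2nd for FUNDC1 and the 81.7th for PINK1. In replicate 2 they were at the 38.7th, 24.5th, 69.1st and 83.6th percentile. The median of all genes was 0.08 in replicate 1 and -0.0013 in replicate 2, with quartiles of -0.57 and 0.46 in replicate 1 and of -0.16 and 0.13 in replicate 2. At least 2-fold lower levels were found for 18.6% of the genes in replicate 1 and for 0.575% in replicate 2.

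Levels of different genes were compared per kilobase of the principal transcript in GENCODE 29 (2861 bases for BNIP3, 3610 for BNIP3L, 1196 for FUNDC1 and 2660 for PINK1). With PBS the order was BNIP3L at 36.8 ± 0.793, BNIP3 at 34.1 ± 0.274, FUNDC1 at 13.3 ± 0.406 and PINK1 at 8.06 ± 0.00668 CPM per kb (SD, n = 2 libraries). The PBS libraries of these neighbours did not overlap, and BNIP3L and BNIP3 were the closest pair. In rIL-17B replicate 2 this pair lay at 32.8 and 32.6 CPM per kb. In rIL-17B replicate 1 the order was different, with FUNDC1 at 19.0, BNIP3 at 15.4, BNIP3L at 13.7 and PINK1 at 12.0 CPM per kb. FUNDC1 was thus the highest of the 3 receptor mRNAs in that library only. With the length of all annotated exons in place of the principal transcript, the PBS means were 30.8, 18.3, 11.3 and 4.43 CPM per kb in the same order, and FUNDC1 was again the highest in replicate 1, at 16.2 against 11.5 for BNIP3L and 8.30 for BNIP3.

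The receptor pool, the summed level of BNIP3, BNIP3L and FUNDC1 per kilobase, was 84.2 and 84.1 with PBS, 48.1 in rIL-17B replicate 1 and 79.6 in replicate 2. FUNDC1 made up 15.4% and 16.1% of it with PBS, 39.4% in replicate 1 and 17.8% in replicate 2. BNIP3L made up 44.4% and 43.1%, then 28.5% and 41.2%. The share of BNIP3 was 40.2% and 40.8% under PBS against 32.1% and 41.0% with rIL-17B. Replicate 2 was close to the PBS libraries in all of these shares, and replicate 1 held a smaller pool with more than the PBS share of FUNDC1. This describes these 3 genes only. The 9 genes of the receptor list described further on summed to 817 and 815 CPM under PBS against 747 and 818 CPM under rIL-17B. That sum was not divided by length, so that it is not on the scale of the pool.

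Ratios within a library do not depend on the scaling between libraries. FUNDC1 held 13.8% and 14.2% of the joint counts of FUNDC1 and BNIP3 with PBS, 33.9% in rIL-17B replicate 1 (exact 95% interval 31.0% to 37.0%) and 15.4% in replicate 2 (13.8% to 17.1%). For PINK1 against BNIP3 the shares were 18.1% and 17.9% under PBS against 41.9% and 20.7% with rIL-17B. BNIP3L held 58.2% and 57.2% of the joint counts of BNIP3L and BNIP3 with PBS, 52.8% in replicate 1 (50.1% to 55.5%) and 55.9% in replicate 2 (54.3% to 57.5%). The interval of replicate 1 lay under that of PBS replicate 1 (56.6% to 59.8%) and overlapped that of PBS replicate 2 (55.4% to 59.0%). FUNDC1 and PINK1 kept a like ratio, with FUNDC1 at 42.0%, 43.1%, 41.7% and 41.0% of their joint counts in the 4 libraries. Each of these 4 intervals overlapped the others.

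The genes with the most similar pattern were found by the root mean square difference of log2 CPM, each gene centred on its own mean over the 4 libraries, among 16360 other genes. For BNIP3 they were CRELD1 (0.015) and FBXO32 (0.020), and for BNIP3L they were EPAS1 (0.006) and TIMP1 (0.007). EPAS1, which encodes HIF-2α, had 399 and 388 CPM under PBS against 146 and 350 CPM under rIL-17B. For FUNDC1 the closest were SSBP3 (0.004) and C1orf109 (0.005), and for PINK1 they were BLMH (0.006) and FAM192A (0.007). BNIP3L was the 390th closest gene to BNIP3, at 0.12, and PINK1 the 590th closest to FUNDC1, at 0.04. Each of these genes was farthest from its own mean in rIL-17B replicate 1. Such closeness was common, since 286 genes lay within 0.1 of BNIP3, 245 of BNIP3L, 3045 of FUNDC1 and 2764 of PINK1.

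Genes of mitophagy and of related processes, such as HIF targets and mitochondrial mass, were described with 9 lists. The lists were written from general knowledge, with earlier results of these data known, and 105 of their genes were tested. None of the 101 that are not among the 4 had an adjusted p under 0.05 by the edgeR quasi-likelihood F test (0.661 to 0.988), and 2 had an unadjusted p under 0.05, TOMM22 and MTFR1. Their groups did not overlap for 45 genes that were higher in both rIL-17B libraries (44.6%) and 27 that were lower (26.7%), beside 31.5% and 27.5% of all genes.

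The receptor list held 9 genes, all tested, with 0 calls, 4 positive and 5 negative log2 fold changes and a median of -0.12, beside -0.03 over all genes tested. PGAM5, a phosphatase that acts on FUNDC1, had 49.1 and 48.8 CPM under PBS against 94.1 and 58.8 CPM under rIL-17B, with a log2 fold change of 0.56 (standard error 0.22). NLRX1, a mitochondrial member of the NOD-like family, had 27.0 and 24.1 CPM under PBS against 20.5 and 21.2 CPM under rIL-17B, with a log2 fold change of -0.36 (standard error 0.15). Unlike BNIP3 and BNIP3L, NLRX1 was as low in replicate 2 as in replicate 1. The adjusted p of both was 0.661 by edgeR.

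In the PINK1 pathway list, 19 genes were tested with 0 calls, 16 positive and 3 negative log2 fold changes (7753 positive of 16361 over all genes) and a median of 0.18 (-0.03 over all genes). The median log2 ratio to the PBS mean was 0.46 in replicate 1, the library that stands apart, and 0.07 in replicate 2. TOMM22, a receptor of the outer membrane import pore to which PINK1 is known to dock, had the smallest p of the list, with 55.1 and 49.9 CPM under PBS against 99.1 and 71.9 CPM under rIL-17B (log2 fold change 0.62, standard error 0.16, adjusted p = 0.661 by edgeR). OMA1, an inner membrane protease, had 6.54 and 6.67 CPM under PBS against 9.72 and 9.23 CPM under rIL-17B, and was thus at a like level in both treated libraries. USP30, a deubiquitinase of the outer mitochondrial membrane, had 13.9 and 12.1 CPM against 10.1 and 11.6 CPM.

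Of the cargo receptors, 7 genes were tested with 0 calls and a median log2 fold change of -0.12. OPTN, which encodes optineurin, had 79.5 and 73.0 CPM under PBS against 36.1 CPM in rIL-17B replicate 1, but 76.4 CPM in replicate 2, between the PBS libraries. CALCOCO2, which encodes NDP52, had 115 and 104 CPM under PBS against 132 and 120 CPM under rIL-17B. SQSTM1, which encodes p62, had 499.7 and 503 CPM against 433 and 498 CPM. OPTN was thus the only 1 of these 7 genes that was at least 2-fold lower in replicate 1, beside 18.6% of all genes tested.

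The ATG8 family is the partner to which all of these receptors bind. Of its 7 genes, 5 were tested with 0 calls, 1 positive and 4 negative log2 fold changes and a median of -0.59. The median log2 ratio was -0.81 in replicate 1 and -0.10 in replicate 2. MAP1LC3B had 144 and 130 CPM under PBS against 63.4 and 125 CPM under rIL-17B. MAP1LC3B2, whose reads can be split with its near copy MAP1LC3B, had 27 and 22 counts against 11 and 18. GABARAP and MAP1LC3C did not pass the filter, with 1 to 13 and 0 to 3 counts. How reads shared between genes were treated is not given, so that such counts are no evidence that an mRNA was absent.

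The list of HIF factors and targets held 23 genes, all tested, with 0 calls, 6 positive and 17 negative log2 fold changes and a median of -0.24. Of these genes, 13 were lower in each rIL-17B library than in either PBS library and 5 were higher, beside 27.5% and 31.5% of all genes. In replicate 1, 9 of the 23 were at least 2-fold lower, beside 18.6% of all genes, and the median log2 ratio was -0.30. In replicate 2 none was 2-fold lower and the median was -0.07. HIF1A, the oxygen-regulated subunit of HIF-1, had 586 and 570 CPM under PBS against 277 and 526 CPM under rIL-17B. VEGFA, an angiogenic growth factor and HIF target, had 304 and 293 CPM against 61.2 and 276 CPM. Both were lowest in the library in which BNIP3 and BNIP3L were lowest. In that library 40.8% of all genes tested lay below both PBS libraries. A link between HIF and the levels of BNIP3 and BNIP3L was not tested.

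Genes of the HIF list differed in direction. CA9, a carbonic anhydrase that is among the best known HIF targets, had 14 and 14 counts under PBS against 33 and 24 counts under rIL-17B and was thus higher in both treated libraries. It had the smallest p of the list (log2 fold change 0.79, standard error 0.41, adjusted p = 0.661 by edgeR), followed by PFKFB3, a glycolytic regulator, with 41.2 and 46.5 CPM against 31.1 and 39.0 CPM. SLC2A1, a glucose transporter that was chosen after its values were seen, had 175 and 171 CPM under PBS against 157 and 169 CPM under rIL-17B. It is 1 of 23 listed genes, of which 9 were at least 2-fold lower in replicate 1. The cause of these differences was not tested.

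**Figure D1:**
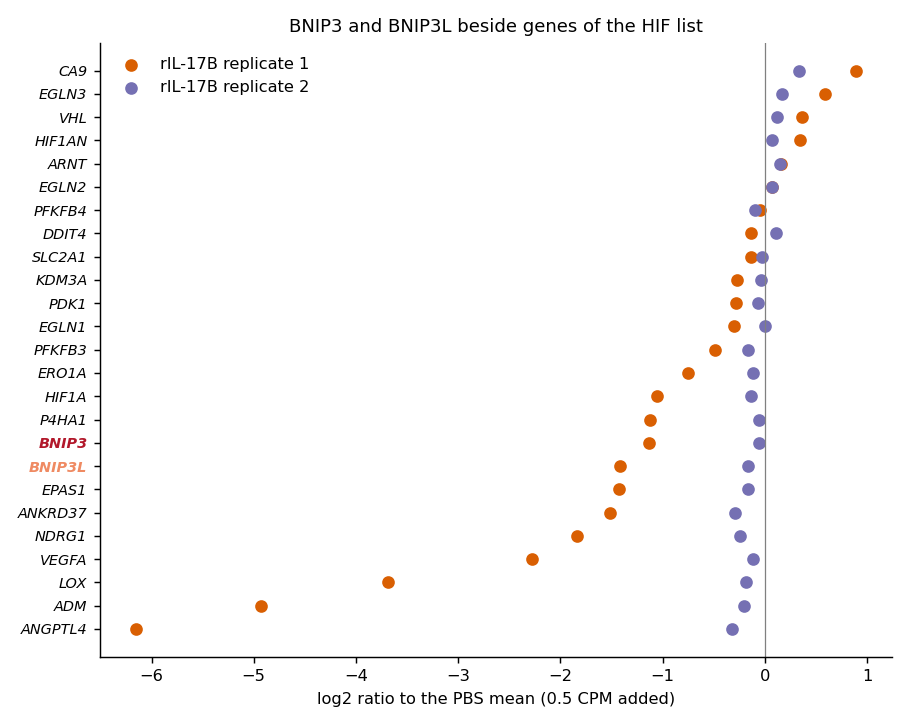
Log2 ratio to the PBS mean (horizontal axis, 0.5 CPM added) of BNIP3, BNIP3L and the 23 genes of the HIF list (vertical axis), in rIL-17B replicate 1 (orange) and replicate 2 (purple), ordered by replicate 1. BNIP3 (-1.13) and BNIP3L (-1.42) lie near HIF1A (-1.06) and EPAS1 (-1.43) in replicate 1, and all genes lie between -0.32 and 0.33 in replicate 2.

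Of the regulators of the 4 proteins or genes, 14 were tested with 0 calls, 7 positive and 7 negative log2 fold changes and a median of 0.01. The median log2 ratio was 0.12 in replicate 1 and 0.0055 in replicate 2. MARCHF5 was not matched by name and has no value. FOXO3, a transcription factor known to act on BNIP3 and BNIP3L, had 60.0 and 63.3 CPM under PBS against 39.8 and 55.7 CPM under rIL-17B. RHEB, a GTPase that is known to bind NIX, had 138 and 125 CPM against 177 and 145 CPM. Both had an adjusted p of 0.661 by edgeR.

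Genes of the mitochondrial network and its mass were described by a pair of lists. The fission and fusion list had 10 genes tested with 0 calls, 9 positive log2 fold changes (7753 of 16361 over all genes) and a median of 0.23 (-0.03 over all genes). Of these, 8 genes were higher in each rIL-17B library than in either PBS library, beside 31.5% of all genes. The median log2 ratio to the PBS mean was 0.47 in replicate 1, the library that stands apart, and 0.11 in replicate 2. MTFR1, a regulator of fission, had 63.2 and 62.3 CPM under PBS against 108 and 78.0 CPM under rIL-17B. OPA1, which fuses inner membranes, had 145 and 138 CPM against 195 and 162 CPM. The biogenesis and mass list had 16 genes tested with 0 calls, 15 positive log2 fold changes and a median of 0.23, beside the same values over all genes. Of these, 13 were higher in both rIL-17B libraries, again beside 31.5% of all genes, and the median log2 ratio was 0.48 in replicate 1 and 0.11 in replicate 2. GABPA, the exception, had 43.4 and 48.4 CPM under PBS against 39.5 and 38.5 CPM under rIL-17B, and TFB2M, a mitochondrial transcription factor, had 31.1 and 31.7 CPM against 45.2 and 36.7 CPM. MFN1 and MFN2 are in both the PINK1 pathway and the fission and fusion list.

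The list of copies and of genes with a like name had 4 genes tested with 0 calls and a median log2 fold change of -0.02. FUNDC2, the paralogue of FUNDC1, had 52.4 and 48.8 CPM under PBS against 80.7 and 53.9 CPM under rIL-17B, and was higher in both treated libraries as FUNDC1 was. BNIP1, BNIP2 and BNIPL share with BNIP3 a name given for binding partners and are not its paralogues. BNIP2 had 91.0 and 89.4 CPM against 99.1 and 89.8 CPM, and BNIP1 8.05 and 8.22 CPM against 9.78 and 7.06 CPM. BNIPL had 2 to 10 counts, BNIP3P1 0 to 4, FUNDC2P1 1 or 2 and FUNDC2P2 0 or 1.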

How the data were processed

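The authors deposited raw counts of reads per gene name, 1 table for each of the 4 RNA-seq libraries. cDNA was primed with oligo-dT and amplified by PCR (Smart-seq2). The submitters' processing notes name hg38, Bowtie2 2.2.3, HISAT2 2.1.0, TopHat2 and HTSeq 0.6.0, without their roles, and neither annotation nor strand use is given in the sources used here. Genes with 0 counts were not listed and were set to 0. Repeated names, each time with an equal count (83 to 98 per library) were used once, and 22 to 25 names turned into numbers (0.228% to 0.244% of the counts) were left out. CPM is the count divided by the library total. Coordinates and lengths came from GENCODE 29 (GRCh38), in which 97.8% of the names were found once. Counts were fitted with edgeR 4.0.16 in R 4.3.3 (TMM, filterByExpr, quasi-likelihood test, Benjamini-Hochberg adjustment over 16361 genes). The fit was also run on simulated counts whose spread was equal in every library. These libraries differ from that setting, so that the run does not bear on the calls reported here. The standard error is the log2 fold change divided by the square root of F. Intervals are exact binomial (scipy 1.17.1, Python 3.11.15).

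The alternatives were DESeq2 1.42.0, upper-quartile and no further scaling, other filters, a replicate block and leaving out each library. The 4 genes, the lists and the tests were chosen with earlier results of these data known. Named genes were the 4 genes, the 2 smallest p of each list with OPTN, CALCOCO2, SQSTM1, USP30, HIF1A, CA9 and VEGFA, the genes of the copies list, and the 2 most similar genes to each of the 4. Others are marked, and 1 gene that the rule names is not reported here. Lists were compared by counts and medians without a set test.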

Additional observations from a re-analysis of the deposited data

How the results depend on the processing

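The count of 0 genes at an adjusted p under 0.05 was also found with upper-quartile normalization, with library totals alone, without the filter, with a minimum of 10 counts per library, with the replicate block and with DESeq2. Genes with p under 0.05 before adjustment numbered 226 of 16361 in edgeR, 190 with upper-quartile normalization, 161 with library totals, 462 of 13542 under the count minimum, and, of 31907 names, 879 unfiltered and 547 by DESeq2. Without PBS replicate 1 or 2 they numbered 1 and 2, and without rIL-17B replicate 1 or 2 they numbered 2327 and 9921. Leaving out 1 library in turn gave between 0 and 9376 genes, and between 0 and 75 of the 105 genes of the lists. The log2 fold change then ranged from -1.28 to -0.068 for BNIP3, from -1.56 to -0.17 for BNIP3L, from 0.092 to 0.38 for FUNDC1 and from 0.18 to 0.43 for PINK1. None of these changed sign in any setting. With 1 library left out, this follows from groups that do not overlap, so that it lends no support. Groups did not overlap for 31.5% of all genes on the higher side and 27.5% on the lower side.

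Blocking on the replicate number left 0 genes past the threshold and 173 with p under 0.05 before adjustment, and the log2 fold changes were -0.67, -0.87, 0.24 and 0.31 for BNIP3, BNIP3L, FUNDC1 and PINK1. The numbers are not said to pair the libraries, and deviations of same-numbered libraries correlated at 0.080 over 16361 genes, which are not independent. With library totals alone in place of TMM, the median log2 fold change of all genes moved from -0.03 to 0.04. For BNIP3, FUNDC1 and PINK1, the counting intervals of rIL-17B replicate 2 overlapped those of PBS, and for PINK1 the PBS mean of 21.4 CPM lay under the interval of 22.2 to 26.9 CPM. On CPM scaled by TMM, 28.5% of all genes were above and 30.4% below without overlap, and the 4 genes kept their sides.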

Other observations

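With rIL-17B replicate 1 left out, 3 of the 105 genes of the lists passed an adjusted p of 0.05 by the edgeR quasi-likelihood F test, where 3.03% of all genes did, and the 4 mitophagy genes were not among them. They were TOMM22 and HSPD1, which were higher, and ANGPTL4, which was lower, and they are named after their values were seen. HSPD1, a chaperonin of the mitochondrial matrix, had 838.5 and 779 CPM under PBS against 1370.2 and 978 CPM under rIL-17B. ANGPTL4, a secreted lipase inhibitor and HIF target, had 1042 and 936 counts under PBS against 7 and 969 counts under rIL-17B. In CPM these were 65.5 and 72.6 against 0.479 and 55.2, so that replicate 2 was lower only after division by the library total. The fit rests on 1 treated library.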
